A study of Zea mays with 22 samples.

Results

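The maize genes ypt1 (listed on the platform as LOC542531, with the synonym yptm1) and rop1 (listed as LOC541773) encode small GTPases. They were found by symbol or synonym among the 329 genes that the platform annotation names. Each gene had 1 probe, printed as 3 spots, in each of the 2 value tables, so the 2 genes account for 4 probes among 399 and 404 named probes and among 5640 and 5760 probes in all. ypt1 was chosen because its ratio after 2 h of high UV-B was already known to be high, so that value and every difference from it are given as descriptions without a test.

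Small GTPases are molecular switches that are active while bound to GTP and inactive once the GTP has been hydrolysed to GDP. Ypt proteins, called Rab proteins in animals, direct the budding, movement and docking of membrane vesicles, and the yeast protein Ypt1 acts in the traffic from the endoplasmic reticulum to the Golgi. ROP proteins are plant GTPases that act at the plasma membrane in polar growth, actin organisation and signalling.

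RNA was taken from maize tissues, and pairs of RNAs were hybridised to 22 spotted 2-colour arrays. Each value is the log2 ratio of the 2 RNAs on 1 array, centred here so that the array median is 0. The second table held 8 arrays, 2 for each of 4 UV-B regimes against control without UV-B, named 8 h high, 8 h low, 4 h medium and 2 h high. The first table held 14 arrays. They compared UV-B with control for 8 h in seedling leaf, adult leaf, tassel, immature ear and root, a leaf under a PE bag on exposed plants with one under a PE bag on control plants, and leaf under a CA bag with leaf under a PE bag on exposed plants. The labels give neither the dose behind high, medium and low nor the tissue of the 4 regimes, and they do not spell out CA and PE. Nothing says that arrays came from separate plants, so the spread behind the p-values is only that between these arrays, which may be technical. That spread is taken mostly from all probes rather than from the gene itself (3 residual against 44.43 prior degrees of freedom). A ratio holds no level, so the labelled organs could not be checked by their marker genes, and fewer cells of a type cannot be told apart from less RNA per cell.

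A value was present at 83.0% to 91.7% of the 17296 spots of the second table and at 32.7% to 99.2% of the 16928 spots of the first. Columns that repeat a profile left 9 distinct profiles of the 14 arrays of the first table, and each was used once. The column deposited as tassel array 1 was identical to that of immature ear array 1, so the tassel values below also stand under an ear label. By its labels, array 2 of each pair had the channels exchanged. In seedling leaf, root and tassel, however, the array 2 column repeated array 1 up to a constant, where both had values. Immature ear array 2 repeated array 3 in the same way, so these columns hold no separate swapped measurement. The files do not state which way the ratios run. It is assumed here that a positive value means more RNA after UV-B than in the control, or more under CA than under PE, with the swapped arrays taken as already turned. The pair of arrays correlated at Pearson r = 0.805 across 5258 probes for 2 h high, 0.232 for 4 h medium and 0.184 for 8 h high. For 8 h low it was -0.363, so the direction of that regime is not settled. By rank the other weak pairs agreed little or not at all, with a Spearman correlation of 0.149 for 4 h medium and -0.014 for 8 h high. In the first table the Pearson correlation was -0.181 for the adult leaf pair and 0.575 for CA against PE.

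ypt1 was among the highest probes after 2 h of high UV-B and had fitted values between 0.094 and 0.24 in the other regimes. At 2 h high the log2 ratio of ypt1 was 2.28 on array 1, from the 1 spot of 3 that had a value, and 1.61 on array 2, where the spots ran from 1.50 to 1.82. That placed ypt1 first of 5314 probes on array 1 and at rank 13 of 5401 on array 2. The limma fit of all 8 arrays shares the spread over regimes and, mostly, over probes. It gave ypt1 a mean log2 ratio of 1.95 ± 0.146 (SE, n = 2 arrays), a 3.86-fold ratio if the values are log2. Folds take the values as base 2, which the files do not state. On 2 h high array 2 repeated values matched base 2, base 10 and the natural log equally, at 2.88%. The 2 arrays differed by more than most pairs did, with an SD of 0.474 for ypt1 against a median of 0.102 over all probes, and 99.1% of probes had a smaller SD. By its mean, ypt1 was second of 5258 probes and first of 380 named probes. In this regime 13.7% of 5199 tested probes passed the threshold of an adjusted p of 0.05. This share is background, since ypt1 was chosen on this contrast. With only the spot that had a value on both arrays, the mean was 2.05.

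In the other 3 regimes the values of ypt1 lay between the 5th and the 95th percentile of all probes on their array, as the plot of spots by regime shows. At 4 h medium they were -0.089 and 0.28, so the arrays had opposite signs. At 8 h low they were 0.23 and 0.26, which differed by an SD of only 0.017, and at 8 h high they were 0.021 and 0.29. The lowest value at 2 h high, 1.61, was thus above every value of the other regimes. The print block that holds the ypt1 probe had a median of 0.13 on 8 h low array 1 and -0.47 on array 2. Measured from their block, the 2 values of ypt1 are thus further apart. With block medians set to 0 the ypt1 mean of 8 h low was 0.41 in place of 0.24.

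**Figure D1:**
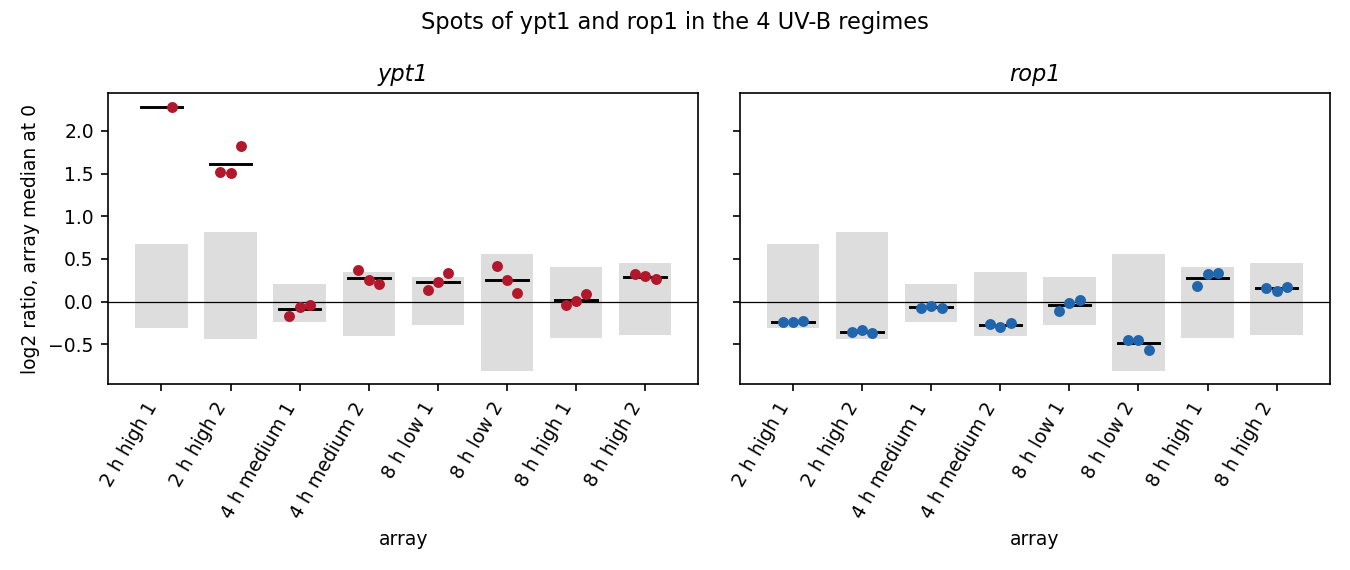
Log2 ratio (vertical axis, array median at 0) of each spot of ypt1 (left) and rop1 (right) on the 8 arrays of the 4 regimes. Dots are spots, black lines are their mean on an array and grey boxes run from the 5th to the 95th percentile of all probes on that array. ypt1 lies at 2.28 and 1.61 at 2 h high, and no rop1 array mean is above 0.28.

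None of the 3 tests of ypt1 outside 2 h high passed, and none had an unadjusted p under 0.05. The fitted mean was 0.094 at 4 h medium (95% interval -0.20 to 0.39, limma adjusted p = 0.995). It was 0.24 at 8 h low (-0.050 to 0.54, limma adjusted p = 0.429) and 0.16 at 8 h high (-0.14 to 0.45, limma adjusted p = 0.867). Probes called in these regimes made up 0.303%, 0.387% and 3.78% of those tested. An unadjusted limma p under 0.05 was found for 265 of 5287, 754 of 4906 and 611 of 5210 probes. With the sign of 8 h low turned, its ypt1 value would be -0.24. These misses do not show that ypt1 was at the control level.

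The order of ypt1 from high to low was 2 h high, 8 h low, 8 h high and 4 h medium. With the sign of 8 h low turned, that regime would be last and 2 h high would exceed it by 2.19. Its 2 h high mean exceeded that of 8 h low by 1.70 ± 0.207 (SE), that of 8 h high by 1.79 and that of 4 h medium by 1.85, all described without a test. Over all probes these differences were called for 5.28%, 11.4% and 6.76% of those tested. The neighbours further down could not be separated. The difference 8 h high minus 8 h low was -0.087 (95% interval -0.50 to 0.33, limma adjusted p = 0.912). The difference 8 h high minus 4 h medium was 0.063 (-0.35 to 0.48, limma adjusted p = 0.996). Over all probes they were called for 0.636% and 0.505%, and 4 h medium minus 8 h low for 0% (0 of 4867 in limma, with 217 at an unadjusted p under 0.05). The comparison of 2 h high with 8 h high keeps the named intensity and changes the duration, whereas 8 h high against 8 h low keeps the duration.

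rop1 ran below the array median in 3 regimes and above it in 1, by amounts that did not pass the test. At 2 h high the log2 ratio of rop1 was -0.23 and -0.35, and at 4 h medium it was -0.066 and -0.27. At 8 h low it was -0.039 and -0.49, the widest gap between a pair of arrays for this gene. On those arrays the print block that holds the rop1 probe had medians of 0.064 and -0.32. At 8 h high both arrays were above 0, at 0.28 and 0.16, and these were the only positive rop1 values among the 8 arrays. The 3 spots of rop1 ran from -0.24 to -0.22 on 2 h high array 1, the tightest of the 8, and from 0.18 to 0.34 on 8 h high array 1, the widest.

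The fitted mean of rop1 at 2 h high was -0.29 ± 0.135 (SE, n = 2 arrays, 95% interval -0.56 to -0.020), a 0.817-fold ratio, with a limma adjusted p of 0.152. It passed the threshold under 4 changes of the processing: with array weights (limma adjusted p = 0.000533), with block medians set to 0 (0.0273), in a fit of its 2 arrays alone (0.0373) and without either array of 8 h low (0.0465 for each). Over all 17 alternatives its adjusted p ran from 0.000533 to 0.9997, and its value from -0.36 to 0.059. The other means were -0.17 at 4 h medium (-0.44 to 0.10, limma adjusted p = 0.995), -0.26 at 8 h low (-0.53 to 0.0093, limma adjusted p = 0.341) and 0.22 at 8 h high (-0.053 to 0.49, limma adjusted p = 0.621). With the sign of 8 h low turned, the rop1 value there would be 0.26. Without array 1 or 2 of that regime it was -0.41 or -0.11. Of the 4 tests of rop1, 0 passed and 1, that of 2 h high, had an unadjusted p under 0.05. So did 1355 of all 5199 probes tested at 2 h high.

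rop1 was highest at 8 h high, followed by 4 h medium and then 8 h low, and was lowest at 2 h high. With the sign of 8 h low turned, that regime would be first, and 8 h high minus 8 h low would be -0.044. The ends of that order differed by -0.51 ± 0.191 (2 h high minus 8 h high, SE, 95% interval -0.90 to -0.13), with a limma adjusted p of 0.0743 where 11.4% of 5061 probes were called. That difference passed in 6 of 16 alternatives, with adjusted p from 0.0140 to 0.492 over all of them. rop1 at 8 h high exceeded 8 h low by 0.48 (0.097 to 0.87, limma adjusted p = 0.300), where 0.636% of probes were called. Of 16 alternatives it passed in 1, without 8 h low array 1, at 0.63 (limma adjusted p = 0.0374). Among neighbours, 8 h high minus 4 h medium was 0.39 (0.0021 to 0.77, limma adjusted p = 0.805), 4 h medium minus 8 h low was 0.095 (-0.29 to 0.48, limma adjusted p = 0.998) and 2 h high minus 8 h low was -0.029 (-0.41 to 0.36, limma adjusted p = 0.960). In limma, 0 of the 9 tested differences of both genes passed, and 3, all of rop1, had an unadjusted p under 0.05. The same held for 1261 of 5061 probes in 2 h high minus 8 h high. In 8 h high minus 8 h low it held for 541 of 4872, and in 8 h high minus 4 h medium for 316 of 5146.

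The genes had opposite signs on 5 of the 8 regime arrays. At 2 h high ypt1 stood at 1.95 where rop1 stood at -0.29, while at 8 h high both were positive, at 0.16 and 0.22. A difference between the probes of separate genes was not tested.

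The platform annotation names 4 other small GTPase genes: yptm3, another Ypt-type gene, the ROP genes rop6 and rop7, and LOC541930, whose synonym is GTPase. None of the 4 passed in any regime, and none had an unadjusted limma p under 0.05. Of all tested probes, 13.7% passed at 2 h high, 3.78% at 8 h high, 0.387% at 8 h low and 0.303% at 4 h medium. In that order, 1355 of 5199, 611 of 5210, 754 of 4906 and 265 of 5287 had an unadjusted limma p under 0.05. At 2 h high, where ypt1 stood at 1.95, the fitted log2 ratio of yptm3 was -0.043 (limma adjusted p = 0.887). For rop7 it was 0.24 (limma adjusted p = 0.288), for rop6 -0.18 (limma adjusted p = 0.439) and for LOC541930 0.0086 (limma adjusted p = 0.978). The median of these 4 was -0.017 against -0.0053 over all tested probes. In the other regimes their fitted values stayed between -0.14 and 0.15. Whether a spotted probe also bound RNA of a related GTPase gene was not tested.

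**Figure D2:**
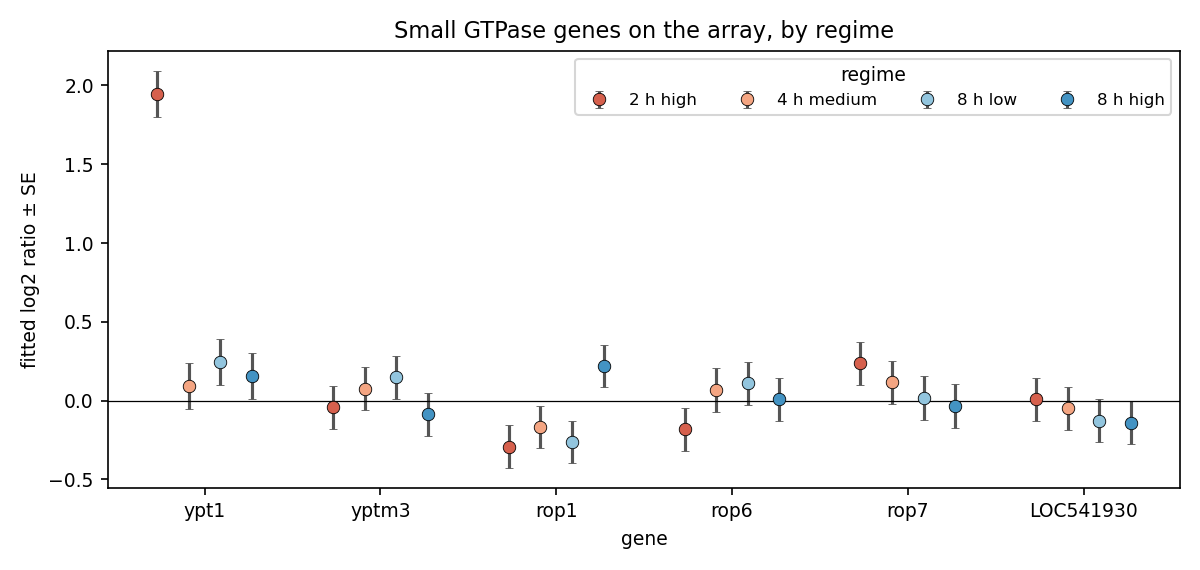
Fitted log2 ratio ± SE (vertical axis) of the 6 small GTPase genes named on the array, with 1 point for each of the 4 regimes. ypt1 at 2 h high lies at 1.95, and the other 23 points lie between -0.29 and 0.24.

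Genes of the cytoskeleton, on which ROP proteins act, were represented by 5 probes of 4 genes: the tubulins tua4 and tub5, the actin-depolymerising factor adf2 and the profilin prf5. In limma 0 of the 5 probes passed in any regime, and 1 had an unadjusted p under 0.05 at 2 h high and 1 at 8 h high. Over all tested probes, 1355 of 5199 had an unadjusted p under 0.05 at 2 h high and 611 of 5210 at 8 h high. The share of all probes that passed was 13.7% at 2 h high and 3.78% at 8 h high, but only 0.303% at 4 h medium and 0.387% at 8 h low. The fitted value of tua4 at 2 h high was -0.32 (limma adjusted p = 0.125), and the higher of both prf5 probes stood at 0.29 at 8 h high (limma adjusted p = 0.381). No named gene matched the list of vesicle traffic words, because the annotation carries symbols and synonyms but no descriptions.

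Some genes known from seeds and flowers were also called at 2 h high, where 13.7% of all tested probes were. Of 4 probes of the seed globulins glb1 and glb2, 2 passed as higher, 1 probe of glb1 at 1.22 (limma adjusted p = 8.94e-10) and 1 of glb2 at 0.43 (limma adjusted p = 0.0215), while the other glb1 and glb2 probes stood at 0.18 and -0.33. Over the 4 probes the range was -0.33 to 1.22. Of 3 floral MADS-box genes, zmm16 passed as higher at 1.84 (limma adjusted p = 1.57e-14), while m28 stood at -0.28 and ZAG1 at 0.069. In the other regimes m28 passed as lower at 8 h low (-0.61, limma adjusted p = 0.0470, direction not settled) and ZAG1 as higher at 8 h high (0.56, limma adjusted p = 0.00795). Over all probes, 0.387% and 3.78% were called in those regimes. The 8 h low arrays of m28 had opposite signs, at 0.054 and -1.27. These seed and floral genes were listed with earlier results of these data known, so their calls are descriptions. Their part in the ypt1 value was not tested.

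The first table came from another array platform than the second and held no array labelled 2 h high, so its values are not set against those of the regimes. The highest array mean of either gene there was 0.95, for rop1 in seedling leaf. ypt1 was above 0 in seedling leaf (0.42, spots from 0.35 to 0.48) and in root (0.51, spots from 0.49 to 0.54). It was below 0 in the PE-covered leaf (-0.28), in tassel (-0.39) and in immature ear (-0.44), with the spots of each probe within 0.05 of each other. In adult leaf array 1 it was -0.024 from 1 spot, and array 2 was blank. In CA against PE the arrays gave 0.17 and -0.0066, a mean of 0.083 (SD 0.126, n = 2 arrays).

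These organ values are single profiles without a settled direction, so the signs of a whole column could be turned and no test was possible. The spread used to judge them was 0.142, the median over probes of the SD between the CA against PE arrays. It is not a spread of these organs. Setting block or plate medians to 0 moved several of them. In seedling leaf the print block of ypt1 had a median of 0.34 and its source plate one of 0.38, and with either set to 0 the ypt1 value became 0.081 or 0.041. In root it became 0.21 with plate medians set to 0, and in immature ear -0.15.

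**Figure D3:**
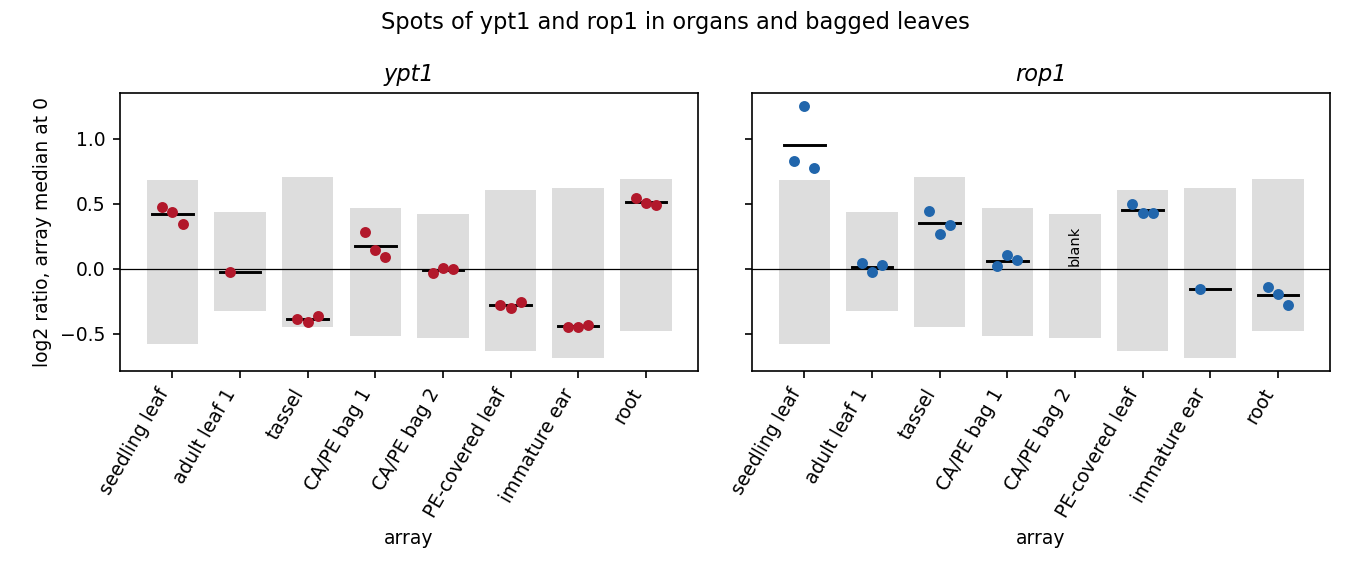
Log2 ratio (vertical axis, array median at 0) of each spot of ypt1 (left) and rop1 (right) on 8 distinct profiles of the first table. Dots are spots, black lines their mean and grey boxes the 5th to 95th percentile of all probes on that array, with adult leaf array 2, blank for both genes, left out. rop1 in seedling leaf, at 0.95, is the highest array mean of either gene.

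rop1 was highest in seedling leaf, with a log2 ratio of 0.95 (spots from 0.77 to 1.25), a 1.93-fold ratio and rank 57 of 4629 probes. The fuller column of the same profile gave 0.95 too, at rank 154 of 5626. rop1 was also above 0 in the PE-covered leaf (0.45) and in tassel (0.35), and below 0 in root (-0.21) and, from 1 spot, in immature ear (-0.16). In adult leaf array 1 and CA against PE array 1 it was 0.016 and 0.062, and both second arrays were blank for rop1, so neither comparison could be fitted. The source plate of rop1 had a median of 0.35 in tassel, and with plate medians set to 0 the rop1 value there was 0.00062. In seedling leaf the same setting gave 0.81.

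The seedling leaf value of rop1 and the 8 h high regime value, 0.22, come from different array platforms and were not compared. Within the first table, the genes had opposite signs on 4 of the 7 profiles where both had a value. In seedling leaf both were positive, and in immature ear both were negative. In root, the PE-covered leaf and tassel they were opposite.

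Among 343 named probes with a value on all 8 regime arrays, likeness to each gene was measured by Pearson correlation over those arrays, as a description. The 2 h high arrays held by far the highest ypt1 values in that correlation, 2.28 and 1.61. The closest genes to ypt1 were PIP1-1, a plasma membrane aquaporin (r = 0.938), the invertase gene ivr2 (r = 0.932), dxs1, which acts in isoprenoid precursor synthesis (r = 0.930), zmm16 (r = 0.922) and the alcohol dehydrogenase gene adh1 (r = 0.918). Their sizes differed widely. The 2 h high mean was 1.84 for zmm16, 1.22 for ivr2, 0.58 for dxs1 and adh1 and 0.20 for the PIP1-1 probe. On the 2 h high arrays the inferred source plate that adh1 shares with ypt1 had medians of 0.11 and 0.21. The plate of dxs1 had 0.45 and 0.27, and that of PIP1-1 had 0.13 and 0.12. Over all 4727 probes compared, 120 (2.54%) correlated with ypt1 above 0.9.

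The genes closest to rop1 were TIP4-1, an aquaporin of the tonoplast (r = 0.941), lip15, a bZIP transcription factor (r = 0.932), hir1, of the hypersensitive induced reaction family (r = 0.922), the glutathione synthetase gene gsh2 (r = 0.922) and the glutathione transferase gene GST39 (r = 0.885). All 5 were negative on average at 2 h high, from -0.39 to -0.27, and positive at 8 h high, from 0.080 to 0.37. They shared with rop1 the low value on 8 h low array 2, an array on which the 5th percentile of all probes was -0.81. Since the 5 were picked by correlation with rop1 over these same arrays, such likeness follows largely from the choice. With rop1, 73 of the 4727 probes (1.54%) correlated above 0.9. By Spearman correlation 2 of the 5 genes for ypt1 and 3 of the 5 for rop1 were again among the closest 5, and by root mean square difference 2 and 2 of the same probes were. A second PIP1-1 probe was among the closest 5 to ypt1 by that difference.

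**Figure D4:**
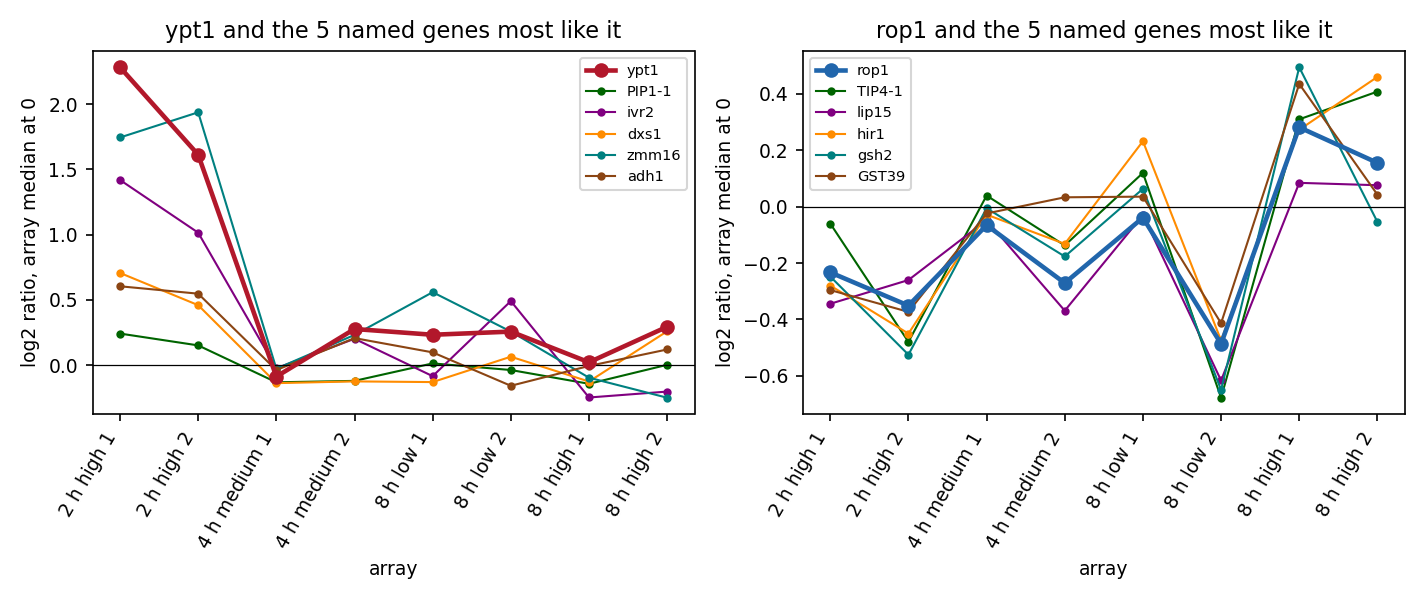
Log2 ratio (vertical axis, array median at 0) on each of the 8 regime arrays (horizontal axis) for ypt1 and the 5 named genes most like it (left) and for rop1 and its 5 (right). Thick lines are the member genes, and lines join arrays only to guide the eye. On the left ypt1 reaches 2.28 and the PIP1-1 probe 0.24 at 2 h high, and on the right rop1 is lowest, at -0.49, on 8 h low array 2.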

How the data were processed

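The values are log2 ratios that the authors deposited, 1 per spot and array. The background correction, normalization, filters and direction behind them are not given in the sources used here. Base 2 was inferred: on seedling leaf array 1, 28.4% of repeated values matched log2 ratios of low integers, against 1.52% for the natural log, and on regime arrays 2.08% to 6.88% did, with base 10 matching as often or more often on 3 of the 8 (up to 4%). Intensities were not used here, so dim spots could not be filtered and only the number of arrays describes precision.

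Every 3 consecutive spots were averaged as 1 probe and each array was centred on its median. Of the spots, 15725 and 16078 have no entry in the platform annotation and are unnamed here. The names ypt1 and rop1 were matched through synonyms from RefSeq's annotation of Zm-B73-REFERENCE-NAM-5.0, which gave names alone. Repeated columns were found with a tolerance of 1e-06. Print blocks (8) and source plates (96 wells) were inferred from spot order.

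The 4 regimes were fitted together in limma 3.58.1 (R 4.3.3) by lmFit and eBayes, with a probe-wise term for channel orientation, and p-values were adjusted by Benjamini and Hochberg over all probes of a comparison. The fit had 3 residual degrees of freedom and a prior of 44.43, so the SE rests mostly on the prior. As array 2 of every pair is the swapped one, the orientation term is also the replicate block. Deviations of same-numbered arrays from their group means correlated at 0.212 to 0.558 in all 6 pairs of regimes, so the numbers were treated as pairing the arrays. Single profiles have no test. Figures used Python 3.11.15 and matplotlib 3.10.9.

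Named are the members, the 5 named genes most like each by Pearson correlation, and the largest of each list, chosen at 2 h high and 8 h high. Members, lists and tests were chosen with earlier results of these data known, and cytoskeleton symbols were added after the annotation was read. The alternatives were scaling, array weights, block and plate medians, spot medians, uncentred values, turned signs, no orientation term, a fit of the arrays compared and each array left out. Added after the values were seen were the matched spot of ypt1 and the bag arrays and each regime fitted alone without the orientation term.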

Additional observations from a re-analysis of the deposited data

Results flagged for a closer look

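The difference of ypt1 between regimes drew attention because groups under the same contrast with control differed. Its log2 ratio at 2 h high exceeded that at 4 h medium by 1.85, that at 8 h low by 1.70 and that at 8 h high by 1.79, and both arrays of 2 h high lay above all 6 other arrays. ypt1 was chosen for this value, so these are descriptions, and the value on 2 h high array 1 came from 1 spot.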

How the results depend on the processing

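Precision rests on 2 arrays per regime and on 1 profile per organ. Without each regime array in turn, the log2 ratio of ypt1 ran from 1.50 to 2.39 at 2 h high, from -0.15 to 0.34 at 4 h medium and from -0.026 to 0.34 at 8 h high, and that of rop1 from -0.36 to -0.22 at 2 h high and from -0.41 to -0.11 at 8 h low. rop1 at 8 h low was -0.15 with scaled arrays and -0.14 with block medians at 0. For differences of ypt1 the ranges were -0.27 to 0.096 (8 h high minus 8 h low), -0.18 to 0.31 (8 h high minus 4 h medium) and -0.40 to 0.094 (4 h medium minus 8 h low). For rop1 they were -0.18 to 0.12 (2 h high minus 8 h low) and -0.054 to 0.24 (4 h medium minus 8 h low). With the sign of swapped arrays turned, ypt1 was 0.34 at 2 h high, -0.18 at 4 h medium, -0.012 at 8 h low and -0.14 at 8 h high, and rop1 was 0.059, 0.10, 0.22 and 0.063 there. The rop1 value at 2 h high passed the threshold at -0.29 with array weights or from its arrays alone and at -0.31 with block medians at 0. ypt1 8 h high minus 8 h low was 0.086 with plate medians at 0, and rop1 4 h medium minus 8 h low was -0.049 with scaled arrays and -0.066 with block medians at 0. The cause was not tested.

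Without the replicate block (the pairing by orientation), ypt1 at 2 h high stayed at 1.95 (SE 0.172) and rop1 at -0.29 (limma adjusted p = 0.315), and no call of either gene changed. For CA against PE, where a blank left ypt1 no residual degrees of freedom with the block, it was 0.083 without it (limma adjusted p = 0.951, or 0.839 from those arrays alone, and -0.0066 to 0.17 without either).

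Of the single profiles, block medians at 0 moved ypt1 in seedling leaf to 0.081, and rop1 to 0.26 in the PE-covered leaf and 0.18 in tassel. Plate medians at 0 moved ypt1 to 0.041 in seedling leaf, 0.21 in root and -0.15 in ear, and rop1 to 0.81 in seedling leaf, -0.38 in ear, 0.00062 in tassel and 0.23 in CA against PE. Uncentred, ypt1 was -0.13 in the PE-covered leaf and -0.60 in ear, and rop1 was 0.60 and -0.32.

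Over the alternatives other than turned signs, called probes numbered 247 to 2371 at 2 h high (714 in the fit reported), 3 to 695 at 4 h medium (16), 3 to 1005 at 8 h low (19) and 6 to 400 at 8 h high (197), and turned signs left 0 at 2 h high. With each regime fitted alone, which needs the block left out, rop1 at 2 h high was the only tested value of either gene to pass (limma adjusted p = 0.0373). Tests of adult leaf or of rop1 in CA against PE, where blanks left 1 value, were not run.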
